A study of Saccharomyces cerevisiae with 96 samples.

Results

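The comparison described here set the transcriptome of the dxo1Δ rai1Δ npy1Δ strain (the triple mutant) against that of the wild type (WT), with 3 libraries of each. These 6 libraries were chosen by their sample labels out of 96 in the series, of which 24 are transcriptome libraries of 8 strains. All strains were haploid Saccharomyces cerevisiae BY4742 (Mat alpha his3Δ1 leu2Δ0 lys2Δ0 ura3Δ0) grown to log phase in YPD, a rich glucose medium, and the auxotrophies were carried by mutants and WT alike. In the triple mutant the 3 deletions were marked dxo1::natNT2, npy1::kanMX4 and rai1::hphNT1. The single and double mutants used to judge additivity carried the same cassettes, and mutants that combine deletions were isolated as random spores after mating and sporulation. The replicates of a strain were described as biological triplicates. Total RNA was depleted of rRNA and sheared before directional libraries were made.

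A cap of NAD can take the place of the usual m7G cap at the 5′ end of an RNA. Dxo1 and Rai1 are enzymes that remove NAD or other incomplete caps from RNA, Rai1 being the partner of the nuclear 5′–3′ exonuclease Rat1, and Npy1 is a nudix hydrolase that splits NAD(H) and can act on NAD-capped RNA. In yeast growing fast on glucose, the genes for ribosomes and ribosome assembly are strongly transcribed, while those for respiration, gluconeogenesis, storage carbohydrates and stress proteins are repressed and come up as glucose runs out.

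In the deposited table each mRNA was counted over a region around its translation start (the 5′ region), and a further table counted whole coding sequences. The WT libraries held 12464058 to 17733417 counted reads and the triple mutant libraries 5911571 to 7311236 in the 5′ table, and 31300875 to 39977036 against 23241152 to 29627411 in the coding sequence table. The WT libraries differed from all 21 mutant libraries in composition. In a principal component analysis of the 24 libraries the first component held 84.3% of the variance and placed the WT libraries at −105 to −110 and the mutant libraries at 0.9 to 21.1. The second held 7.06% and placed npy1Δ at −23.7 to −28.4. SCR1, the RNA of the signal recognition particle, took 48.2% ± 1.07 (SD, n = 3) of WT reads and 32.6% ± 0.816 of triple mutant reads, and mRNAs took 10.6% ± 0.544 and 27.2% ± 0.551 (exact permutation test, p = 0.1 each, the smallest that 3 against 3 allow). The labels also carry 2 sequencing run codes. WT and npy1Δ (6 libraries) share the first code and the other 6 strains (18 libraries) the second, so that for the triple mutant against WT the genotype and the run code cannot be told apart. In the 5′ region 24 RNAs had at least 10 reads in each library of the first code and 0 in each of the second, which was seen for no RNA the other way round and for none in the coding sequence table. For the mating type, the 4 alpha-specific genes summed to 510 to 547 scaled counts in WT and 7619 to 8686 in the triple mutant, and the 6 a-specific genes to 69.3 to 96.6 and 59.0 to 71.3. A scaled count is a read count after TMM scaling, edgeR's correction for depth and composition, and the part of these features in the results below was not tested.

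**Figure D1:**
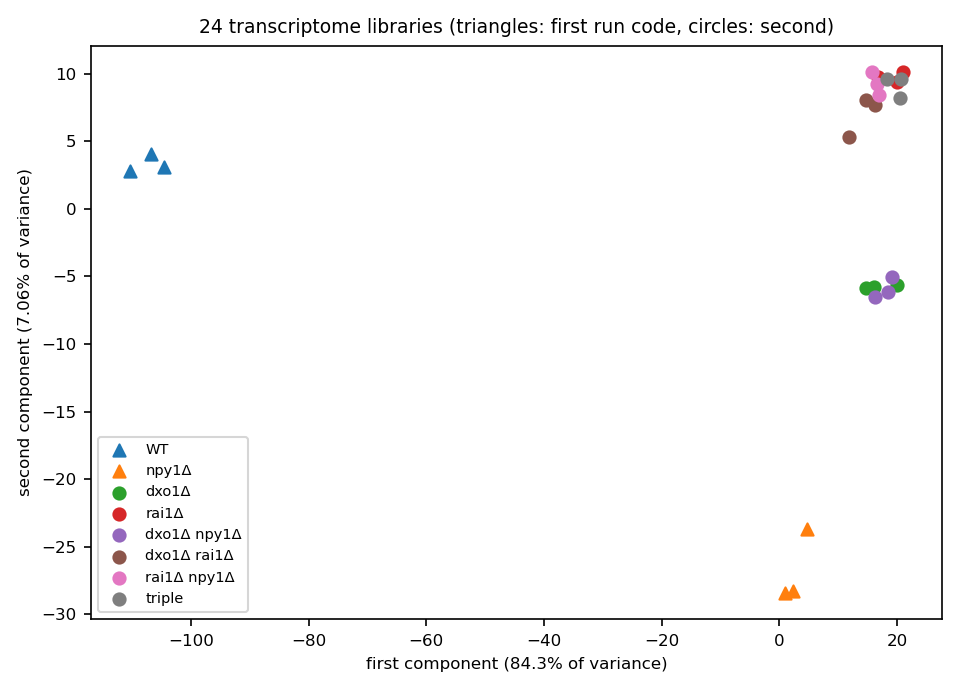
First and second principal components of log2 scaled counts in the 24 transcriptome libraries, 1 point per library, coloured by strain. The 3 WT libraries lie apart on the first component (84.3% of the variance), npy1Δ is apart on the second, and the triple mutant lies among the other mutants.

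The 3 deleted genes were examined first. Their coding sequences showed the deletions plainly. NPY1 had 430, 442 and 488 coding sequence reads in WT and 10, 14 and 8 in the triple mutant (log2 change −5.42 ± 0.18, SE). RAI1 had 368, 422 and 455 against 5, 0 and 4 (−7.08 ± 0.25), and DXO1 had 89, 132 and 144 against 7, 4 and 7 (−4.34 ± 0.27). In every case the groups were far apart. In the 5′ region the coverage was thin. NPY1 had 35, 51 and 32 reads in WT and 7, 9 and 6 in the triple mutant (−2.93 ± 0.32), RAI1 had 7, 15 and 12 against 0, 0 and 1, and DXO1 had 0, 0 and 5 against 0 in all 3 libraries, too few to be tested.

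CTS2, which encodes a putative chitinase and lies next to DXO1, had 9, 9 and 8 reads in its 5′ region in WT and 135, 89 and 126 in the triple mutant (log2 change 3.21 ± 0.24, adjusted p = 1.19e-12). Over the coding sequence its change was 0.97. XRS2, the other neighbour, encodes a subunit of the Mre11 complex that repairs DNA breaks. It had 4 reads in each WT library and 71, 60 and 59 in the triple mutant (3.43 ± 0.32, adjusted p = 1.13e-10), while its coding sequence gave −0.56. In dxo1Δ the 5′ region of CTS2 had 155, 176 and 126 reads and that of XRS2 70, 118 and 97. In npy1Δ CTS2 had 27, 17 and 14 and XRS2 21, 12 and 12. In rai1Δ CTS2 had 15, 14 and 9 and XRS2 15, 25 and 35.

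The triple mutant differed from WT in most RNAs measured. An RNA was tested when its mean scaled count over the 6 libraries was above 1 and was called when the adjusted p (edgeR quasi-likelihood test, Benjamini-Hochberg) was below 0.05 and the absolute log2 change above 0.5. Of 6990 tested RNAs 5166 (73.9%) were called, 2729 higher (39.0%) and 2437 lower (34.9%). Beyond an absolute log2 change of 2 there were 2320 (33.2%), of which 1308 were higher (18.7%) and 1012 lower (14.5%). The coding sequence counts gave 5344 of 7134 (74.9%), with 2749 higher (38.5%) and 2595 lower (36.4%). For 4037 mRNAs called in both tables the direction was the same in 3898 and opposite in 139. The scaled counts of the 2 groups did not overlap for 5551 RNAs (79.4%). With total counts in place of TMM the median of all RNAs moved by 1.70 on the log2 scale, and the split became 5094 higher and 802 lower (86.4% of calls higher, against 52.8%). Changes below are relative to the TMM scale, on which the median of all tested RNAs was 0.12. The calls of each list below stand beside 39.0% of all RNAs higher and 34.9% lower. With total counts 5094 of 7045 RNAs were higher and 802 lower. In such bulk libraries fewer cells with a transcript and less of it per cell cannot be told apart.

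The genes of protein synthesis rose together. All 56 tested genes of the small ribosomal subunit rose, 52 of them by more than 2 on the log2 scale, with a median of 3.54. Of 81 tested genes of the large subunit 78 rose and 1 fell (median 3.40), and of 82 ribosome biogenesis genes 79 rose and 1 fell (median 4.05). Over coding sequences the medians were 3.80, 3.81 and 3.89. There, 55 small subunit genes, 81 large subunit genes and 80 biogenesis genes rose, and none fell.

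RPS22A, a protein of the small subunit, stood at 42.6, 30.6 and 41.4 scaled counts in WT and 2270, 2264 and 2352 in the triple mutant (log2 change 5.91 ± 0.16, adjusted p = 1.98e-22). Every triple mutant library lay far above every WT library. Many ribosomal proteins have a near-identical second gene, and the split of reads between such copies is uncertain. RPL16A was the large subunit gene that fell in the 5′ region (−1.03 ± 0.17, but 0.65 with total counts), and its coding sequence counts rose by 4.30. RIO1, a kinase of late small subunit maturation, was the biogenesis gene that fell (−1.80), with −0.10 over its coding sequence and −0.11 with total counts, neither of which was called.

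Among the factors that process and modify pre-rRNA, NOP1 encodes the fibrillarin that methylates rRNA under snoRNA guidance. Its 5′ region had 2.84, 2.36 and 17.6 scaled counts in WT and 1107, 1197 and 1092 in the triple mutant (7.07 ± 0.24, adjusted p = 2.12e-20). NSR1, a nucleolin-like protein of the nucleolus, went from 19.9, 9.42 and 20.7 to 1454, 1294 and 1035 (6.23 ± 0.20). SNU13, a core protein of box C/D snoRNPs, went from 46.9, 55.4 and 56.9 to 2336, 2837 and 2506 (5.58). In all 3 genes the lowest triple mutant library was many times the highest WT library. MRT4, which places the ribosomal stalk, had 1.42, 1.18 and 2.07 scaled counts in WT and 260, 248 and 239 in the triple mutant (7.19 ± 0.27), on very few WT reads.

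Of 19 tested subunits of RNA polymerases I and III 18 rose and none fell (median 3.40). RPA190, the largest subunit of RNA polymerase I, rose from 42.6, 40.1 and 58.9 to 653, 654 and 526 scaled counts (3.67 ± 0.15, and 3.70 over the coding sequence). RPA12, a small subunit of the same enzyme, had 2.84, 3.53 and 4.14 in WT and 309, 301 and 251 in the triple mutant (6.28). Translation factors moved less as a group, with 26 of 31 higher, 1 lower and a median of 2.17. TEF2, 1 of the paired genes of elongation factor 1A, had 1922, 2496 and 2278 scaled counts in WT and 17880, 18630 and 19226 in the triple mutant (3.06).

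**Figure D2:**
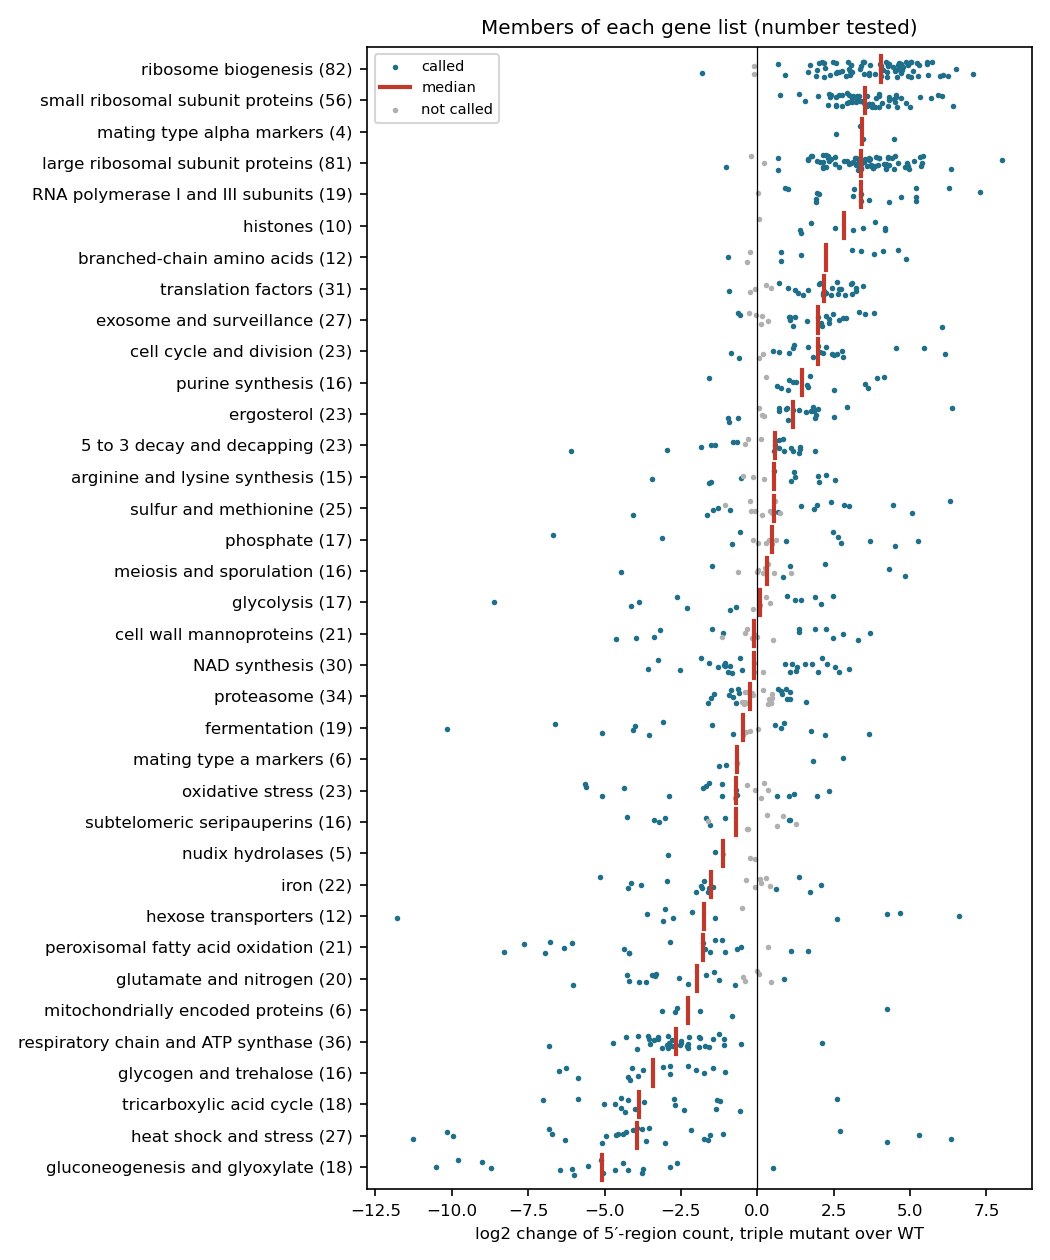
Log2 change of each tested member of the gene lists in the triple mutant against WT, 1 point per gene and 1 row per list, with the list median marked. Ribosomal protein, ribosome biogenesis and RNA polymerase I and III genes lie mostly above 2, and gluconeogenesis, citrate cycle, storage carbohydrate and heat shock genes mostly below −2.

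Genes of cell division and of the building of DNA and chromatin were higher. In the cell cycle list 19 of 23 rose and 2 fell (median 1.98), and of 10 histone genes 9 rose and none fell (median 2.84). RNR1, the large subunit of ribonucleotide reductase, stood at 5.68, 7.07 and 12.4 scaled counts in WT and 385, 386 and 385 in the triple mutant (5.45 ± 0.20, adjusted p = 1.25e-19). POL30, the sliding clamp of DNA polymerases, rose from 9.94, 13.0 and 11.4 to 254, 287 and 270 (4.54). The histone gene HTB2 (H2B) rose from 81.0, 97.8 and 81.7 to 1635, 1521 and 1616 (4.19 ± 0.14, adjusted p = 9.72e-21). Over the coding sequence RNR1 changed by 4.80 and HTB2 by 3.68.

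Several biosynthetic pathways rose as well. Purine synthesis genes were higher in 14 of 16 cases and lower in 1 (median 1.45), branched-chain amino acid genes in 9 and 1 of 12 (median 2.25), and ergosterol genes in 17 and 3 of 23 (median 1.17). SAM1, a synthetase of S-adenosylmethionine, had 27.0, 24.7 and 22.7 scaled counts in WT and 1875, 2122 and 1835 in the triple mutant (6.29 ± 0.17, adjusted p = 1.36e-22). BAT1, the mitochondrial branched-chain aminotransferase, went from 36.9, 28.3 and 40.3 to 1042, 984 and 1087 (4.87 ± 0.15). SHM2, the cytosolic serine hydroxymethyltransferase of one-carbon metabolism, rose by 3.52 and ERG11, the lanosterol demethylase, by 1.99. The sulfur amino acid list was mixed, with 10 higher and 5 lower of 25 (all RNAs 39.0% and 34.9%). The arginine and lysine list was likewise mixed, with 8 and 4 of 15. With total counts these lists had 20 and 1, and 12 and 1.

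The uptake and use of carbon shifted along with this. The hexose transporter list was divided, with 4 of 12 higher (all RNAs 39.0%) and 7 lower (all RNAs 34.9%). Its median was −1.75, but 0.31 with total counts. HXT3, a low-affinity glucose transporter, had 8.52, 22.4 and 44.5 scaled counts in WT and 2755, 2755 and 2303 in the triple mutant (6.61 ± 0.23, and 3.90 over the coding sequence). HXT2, a transporter of higher affinity, rose from 18.5, 40.1 and 45.5 to 930, 990 and 814 (4.66). HXT5, a transporter of slowly growing cells, had 10972, 10567 and 8898 in WT and 0.809, 4.76 and 3.00 in the triple mutant (−11.78 ± 0.26, adjusted p = 7.74e-24). HXT6 and HXT7, a near-identical high-affinity pair whose reads are hard to assign, fell by 3.02 and 3.08.

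In glycolysis 6 of 17 genes rose (all RNAs 39.0%) and 7 fell (all RNAs 34.9%), with a median of 0.10. With total counts 12 rose and 5 fell (1.79). Paired genes of 1 step went opposite ways. HXK2, the main hexokinase on glucose, rose from 283, 323 and 312 scaled counts to 1586, 1804 and 1764 (2.49), while GLK1 and HXK1, the glucose kinases that glucose represses, fell by 3.88 and 4.13. TDH3, the main glyceraldehyde-3-phosphate dehydrogenase, rose from 8725, 10529 and 11446 to 35550, 37187 and 40904 (1.89 ± 0.14). TDH1, its relative of slow growth, fell from 40531, 36207 and 40939 to 110, 83.8 and 107 (−8.61 ± 0.19, adjusted p = 7.74e-24). The same opposite directions were seen over the coding sequences (1.14 and −5.82).

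Genes of gluconeogenesis, acetate use and respiration mostly fell on the TMM scale. Of 18 genes of gluconeogenesis, the glyoxylate cycle and acetate use 17 fell and 1, the ammonium and acetate transporter gene ATO3 (0.53), rose (median −5.08). The call of ATO3 was lost with DESeq2, RLE factors, factors from mRNA rows, the fit of 24 libraries and without WT replicate 3 (0.45 to 0.50). Of 18 citrate cycle genes 17 fell and 1 rose (median −3.86). Of 36 nuclear genes of the respiratory chain 35 fell and 1, COX5B (2.12, with −0.81 over its coding sequence), rose (median −2.65). COX5B encodes the hypoxic form of a cytochrome oxidase subunit. These 3 medians stayed negative with total counts, at −3.40, −2.17 and −0.96.

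PCK1, the phosphoenolpyruvate carboxykinase of gluconeogenesis, had 7502, 6256 and 6033 scaled counts in WT and 4.04, 4.76 and 4.51 in the triple mutant (−10.50 ± 0.22, adjusted p = 4.78e-24). JEN1, the lactate and pyruvate importer, had 2383, 2168 and 2548 against 8.90, 2.86 and 1.50 (−9.02). Both were near the detection limit in the triple mutant. SDH1, a subunit of succinate dehydrogenase, fell from 5660, 4902 and 4911 to 89.8, 69.5 and 104 (−5.86 ± 0.17, adjusted p = 6.01e-22). CYT1, cytochrome c1 of the respiratory chain, fell from 2412, 2152 and 1841 to 108, 104 and 116 (−4.28 ± 0.14). The citrate synthase CIT2, the ketoglutarate dehydrogenase subunit KGD1 and the ATP synthase subunit ATP2 fell by 5.03, 4.02 and 3.38.

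Transcripts of the mitochondrial genome were lower in 5 of 6 cases (median −2.26), and in 3 with total counts (−0.59). The sixth, VAR1, a mitochondrial ribosomal protein, had 0 reads in WT and 8 over the 3 triple mutant libraries, which is too few for a fold. COX3, a core subunit of cytochrome oxidase, fell from 1900, 1695 and 1433 scaled counts to 289, 228 and 255 (−2.70), and OLI1, a subunit of the ATP synthase, by 1.87, a call lost with total counts (−0.19). COX2, another core oxidase subunit, gave −0.84 in the 5′ region and −2.90 over the coding sequence, but 0.83 with total counts. In peroxisomal fatty acid oxidation 18 of 21 genes fell and 2 rose (median −1.76, and −3.80 over coding sequences, where 19 fell and 1 rose), but with total counts 10 fell and 7 rose (−0.08).

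All 16 genes of glycogen and trehalose metabolism fell (median −3.40, and −4.21 over coding sequences). GPH1, glycogen phosphorylase, had 3136, 2808 and 2614 scaled counts in WT and 35.6, 32.4 and 42.0 in the triple mutant (−6.27 ± 0.16, adjusted p = 1.06e-22). Of 27 heat shock and general stress genes 23 fell and 4 rose (median −3.95, and −5.24 over coding sequences). HSP26, a small heat shock protein that holds unfolded proteins, had 57376, 50824 and 50918 scaled counts in WT and 23.5, 19.0 and 21.8 in the triple mutant (−11.26 ± 0.21, adjusted p = 4.90e-25). HSP30, a stress protein of the plasma membrane, had 37797, 30954 and 33399 against 22.6, 41.9 and 25.5 (−10.16). The 4 that rose were YDJ1 (2.70), SSB1 (5.29), SSB2 (4.25) and SSA2 (6.34). They encode chaperones that assist newly made proteins in unstressed cells, and SSA2 is nearly identical to SSA1 and gave 1.20 over its coding sequence.

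Of 23 oxidative stress genes 12 were lower and 5 higher in the 5′ region (median −0.68, but 1.00 with total counts), and 17 and 3 over coding sequences (−1.55). CTT1, the cytosolic catalase, fell from 513, 744 and 735 scaled counts to 23.5, 19.0 and 15.8 (−5.10), and GRE1, a stress-induced hydrophilin, from 8915, 8232 and 8628 to 6.47, 10.5 and 9.01 (−9.95). In the list of glutamate and nitrogen genes 14 of 20 fell and 1 rose (median −1.97), but with total counts 9 fell and 7 rose (−0.285). Among them GDH3, the glutamate dehydrogenase of non-fermentative growth, fell from 1520, 1279 and 1069 to 73.6, 68.5 and 68.3 (−4.19), and GAD1, glutamate decarboxylase, by 6.03.

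For iron uptake 12 of 22 genes fell and 4 rose (median −1.51, but 0.18 with total counts). FIT3, a cell wall mannoprotein that retains iron siderophores, fell from 6246, 5151 and 7060 to 187, 170 and 160 (−5.16 ± 0.16). The phosphate list was divided, with 7 of 17 higher (all RNAs 39.0%) and 4 lower (all RNAs 34.9%), and a median of 0.49. With total counts 15 were higher and 2 lower (2.18). PHO84, the high-affinity phosphate transporter, rose from 125, 66.0 and 139 scaled counts to 4272, 4275 and 4109 (5.26 ± 0.19, adjusted p = 6.04e-20). PHM7, a membrane protein of the phosphate regulon, fell from 808, 689 and 759 to 8.90, 6.66 and 6.01 (−6.68).

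The machinery that degrades RNA did not move one way on the TMM scale. Of 23 genes of decapping and 5′–3′ decay 13 rose (all RNAs 39.0%) and 7 fell (all RNAs 34.9%), with a median of 0.58. With total counts 18 rose and 2 fell (2.275). RAT1, the nuclear exonuclease that Rai1 binds, rose from 22.7, 33.0 and 36.2 scaled counts to 63.9, 69.5 and 78.1 (1.17 ± 0.20, adjusted p = 6.89e-06). XRN1, the cytoplasmic 5′–3′ exonuclease, had 898, 830 and 793 in WT and 543, 519 and 538 in the triple mutant (−0.65 ± 0.11), with −0.07 over its coding sequence and 1.03 with total counts. DCP2, the catalytic subunit of the m7G decapping enzyme and itself a nudix protein, fell from 83.8, 101 and 100 to 39.6, 40.0 and 30.8 (−1.39, but 0.30 with total counts). Its partner DCP1 rose from 9.94, 14.1 and 15.5 to 53.4, 40.0 and 57.1 (1.90).

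DCS1 and DCS2 belong to the scavengers of the cap fragment left by 3′–5′ decay, Dcs2 being a regulator of Dcs1. DCS2 had 991, 1060 and 1008 scaled counts in WT and 20.2, 14.3 and 10.5 in the triple mutant (−6.08 ± 0.17, adjusted p = 2.83e-22), and DCS1 fell from 1469, 1329 and 1193 to 155, 171 and 190 (−2.95). Exosome and nuclear surveillance genes mostly rose, 20 of 27 with 2 lower (median 2.00). MTR4, the helicase of the TRAMP complex, rose by 3.32, DIS3, the catalytic exosome subunit, by 2.91 and RRP6, its nuclear exonuclease, by 1.63, while LRP1 (−0.62) and NAB3 (−0.56) fell, which turned to 1.08 and 1.13 with total counts. LRP1 gave 0.98 over its coding sequence, and its call was lost without WT replicate 3 (−0.42), triple mutant replicate 2 (−0.43) or 3 (−0.39). The call of NAB3 was lost without WT replicate 1 (−0.47) or triple mutant replicate 1 (−0.41).

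The genes of NAD metabolism were divided on the TMM scale, with 13 of 30 higher (all RNAs 39.0%) and 14 lower (all RNAs 34.9%). Their median was −0.11. With total counts 24 were higher and 3 lower (1.58). On the side of breakdown and salvage, PNC1, the nicotinamidase, fell from 1922, 1874 and 1686 scaled counts to 178, 162 and 237 (−3.24 ± 0.14, adjusted p = 3.64e-18). The NAD(H) kinase gene YEF1, the nicotinamide riboside importer NRT1, the adenylyltransferase NMA2 and the phosphoribosyltransferase NPT1 fell by 2.53, 1.59, 1.29 and 0.90, but with total counts the last 3 were 0.10, 0.39 and 0.78 higher on the log2 scale. NRK1, the nicotinamide riboside kinase, rose from 9.94, 4.71 and 7.24 to 55.8, 48.5 and 67.6 (2.99 ± 0.29, adjusted p = 3.96e-10). URH1, a nucleoside hydrolase that acts on the same riboside, rose by 2.54. The NAD synthetase QNS1 (−0.12) and the adenylyltransferase NMA1 (0.19) were not called, but QNS1 was called over its coding sequence (−0.50) and both with total counts (1.57 and 1.87). Of the 5 nudix hydrolase genes tested, NPY1 and DCP2 fell and the other 3 were not called in the 5′ region, while 4 of the 5 fell over coding sequences.

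In the remaining lists genes moved both ways in the 5′ region, where 39.0% of all RNAs rose and 34.9% fell. Of 34 proteasome genes, whose products degrade tagged proteins, 8 rose and 9 fell (median −0.24, but 1.45 with total counts), and over coding sequences 2 rose and 15 fell (−0.43). Of 19 fermentation genes 6 rose and 9 fell (−0.47, but 1.21), and of 21 cell wall mannoprotein genes 8 rose and 6 fell (−0.09, but 1.60). The subtelomeric seripauperins, a family of near-identical wall proteins, rose in 2 and fell in 7 of 16 cases (−0.69, but 0.96), and meiosis genes in 5 and 2 of 16 (0.30, but 2). Members left untested for low counts were 4 of 16 hexose transporters, 2 of 8 mitochondrially encoded genes, 2 of 18 meiosis genes, 1 of 17 seripauperins and 1 of 83 ribosome biogenesis genes.

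The RNAs with the most extreme changes, by the naming rule, came only in part from these groups. The 10 highest were tH(GUG)G2 (a histidine tRNA gene), MRT4, NOP1, SWC3, HXT3, SSA2, SAM1, RPA12, NSR1 and INA1. SWC3, a subunit of the SWR1 chromatin remodeller, gave 7.07 in the 5′ region and 0.55 over its coding sequence. Of the 10 lowest, YDR133C, Q0297, SER3, YOR192C-C, SNR60 and YBL107W-A had 0 reads in every library of the second run code. Measured against a floor of 3 reads over the group, YDR133C was at least 6871-fold lower in the triple mutant and SER3, a phosphoglycerate dehydrogenase of serine synthesis, at least 2711-fold lower, but the coding sequence changes were 0.60 and −0.77. The other 4 of the lowest were HXT5, HSP26, YMR175W-A and SPS100. The spore wall gene SPS100 fell from 2785, 2590 and 3235 scaled counts to 2.43, 0.952 and 0.751 (−10.90).

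Among the other RNA classes, tRNA rows were higher in 147 of 223 cases and lower in 7 (median 2.48) in the 5′ table, on few reads (0.00316% of WT reads and 0.0761% of triple mutant reads). Of 77 snoRNAs 32 were higher and 25 lower in the 5′ table (median 0.07), and 42 and 18 in the coding sequence table (0.58). Outside the mRNAs, however, 956 of 1022 rows hold the same counts in both tables. For such rows the tables differ only in scaling and are no separate measurements. Of 48 rows of Ty retrotransposons 45 fell and none rose in the 5′ table (median −0.97), and 20 fell and 3 rose in the coding sequence table (−0.46). All rows of Ty retrotransposons and transposable element genes took 0.699% ± 0.0135 of WT reads and 0.881% ± 0.0423 of triple mutant reads (SD, n = 3, exact permutation test, p = 0.1). These shares include untested rows and are of raw reads, not on the TMM scale. Copies of Ty elements are near-identical.

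**Figure D3:**
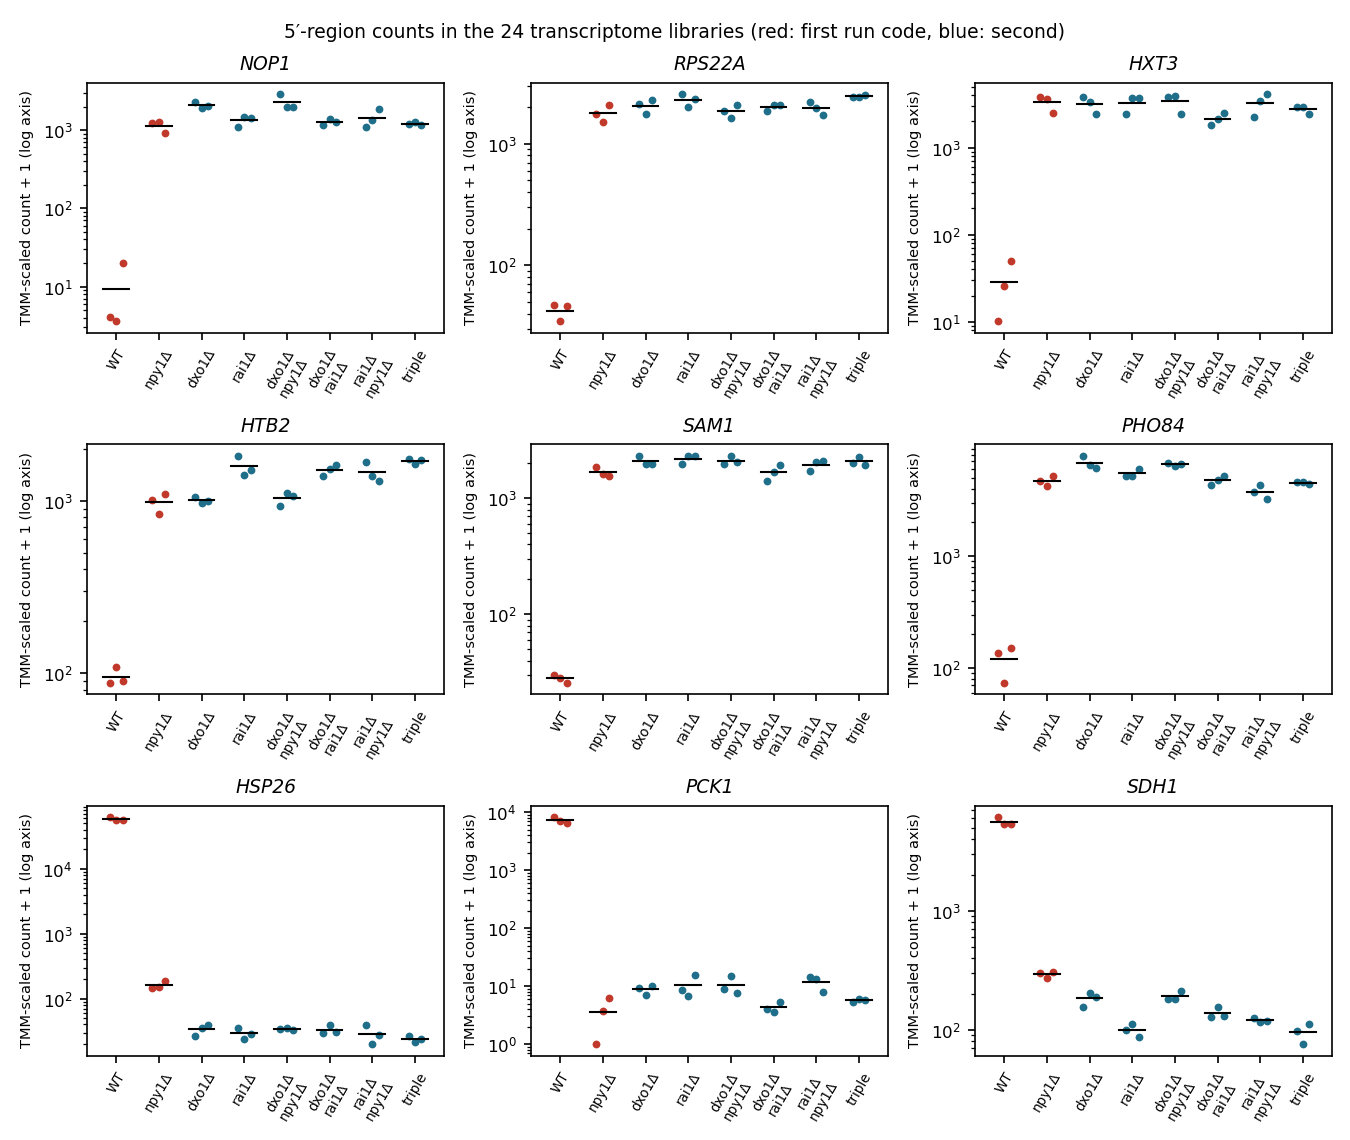
Scaled counts plus 1 (log axis) of 9 genes in all 24 transcriptome libraries by strain, 1 point per library, red for the first run code and blue for the second, with the group mean as a bar. For NOP1, RPS22A, HXT3, SAM1 and PHO84 the WT libraries lie below every mutant library, and for HSP26, PCK1 and SDH1 above every mutant library.

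Additivity was judged in a fit of all 24 libraries, in which the change of the triple mutant was set against the sum of the changes of the 3 single mutants (log2 scale). A departure of 0 means that the deletions add up. Since every single mutant and the triple mutant were compared with the same 3 WT libraries, these comparisons share their controls, and the departure weighs the WT libraries by 2. Of 7030 tested RNAs 5037 departed (71.7%, edgeR, adjusted p below 0.05 and absolute departure above 0.5), 2429 with a positive (34.6%) and 2608 with a negative sign (37.1%), and 3755 (53.4%) departed by more than 2. Each single mutant by itself had about as many calls against WT as the triple mutant, 4739 in npy1Δ (67.4%), 4973 in dxo1Δ (70.7%) and 5113 in rai1Δ (72.7%). The double mutants had 5063 (dxo1Δ npy1Δ, 72.0%), 5048 (dxo1Δ rai1Δ, 71.8%) and 5070 (rai1Δ npy1Δ, 72.1%).

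For RNAs with large changes in the triple mutant the departures ran against the direction of change. For the 1307 RNAs that were higher by more than 2 in the triple mutant and tested in all 24 libraries, the median change was 3.09 in the triple mutant, 2.60 in npy1Δ, 2.99 in dxo1Δ and 3.10 in rai1Δ. The median sum of the singles was 8.65, and 1214 of these RNAs departed with the opposite sign and 0 with the same sign. For the 996 RNAs lower by more than 2 the medians were −3.17, −2.70, −3.11 and −3.15, the sum was −9.20, and 908 departed with the opposite sign and 0 with the same sign. By these medians the triple mutant was about as far from WT as 1 single mutant, and not as far as the 3 added together. Both sets were chosen by the change of the triple mutant against WT. Those 2 groups also enter the departure, so the signs are no separate test. Over all 7030 RNAs 34.6% departed positively and 37.1% negatively. WT and npy1Δ carry the first run code and the other strains the second, so the departure and the run code cannot be told apart.

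The same was seen within the pathways. In the fit of 24 libraries small subunit ribosomal protein genes had medians against WT of 2.53 in npy1Δ, 3.15 in dxo1Δ, 3.49 in rai1Δ and 3.51 in the triple mutant. Of these genes 53 of 56 departed negatively (median departure −5.77). Ribosome biogenesis genes had single medians of 3.46, 3.93 and 4.04, and 79 of 82 departed negatively (−7.40). On the falling side, citrate cycle genes had single medians of −2.93, −3.54 and −4.02 and 17 of 18 departed positively (6.56). Heat shock genes had −3.08, −3.76 and −3.81, with 23 positive and 4 negative departures (6.67), and glycogen and trehalose genes −2.30, −3.24 and −3.36, with 16 of 16 positive (5.16).

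**Figure D4:**
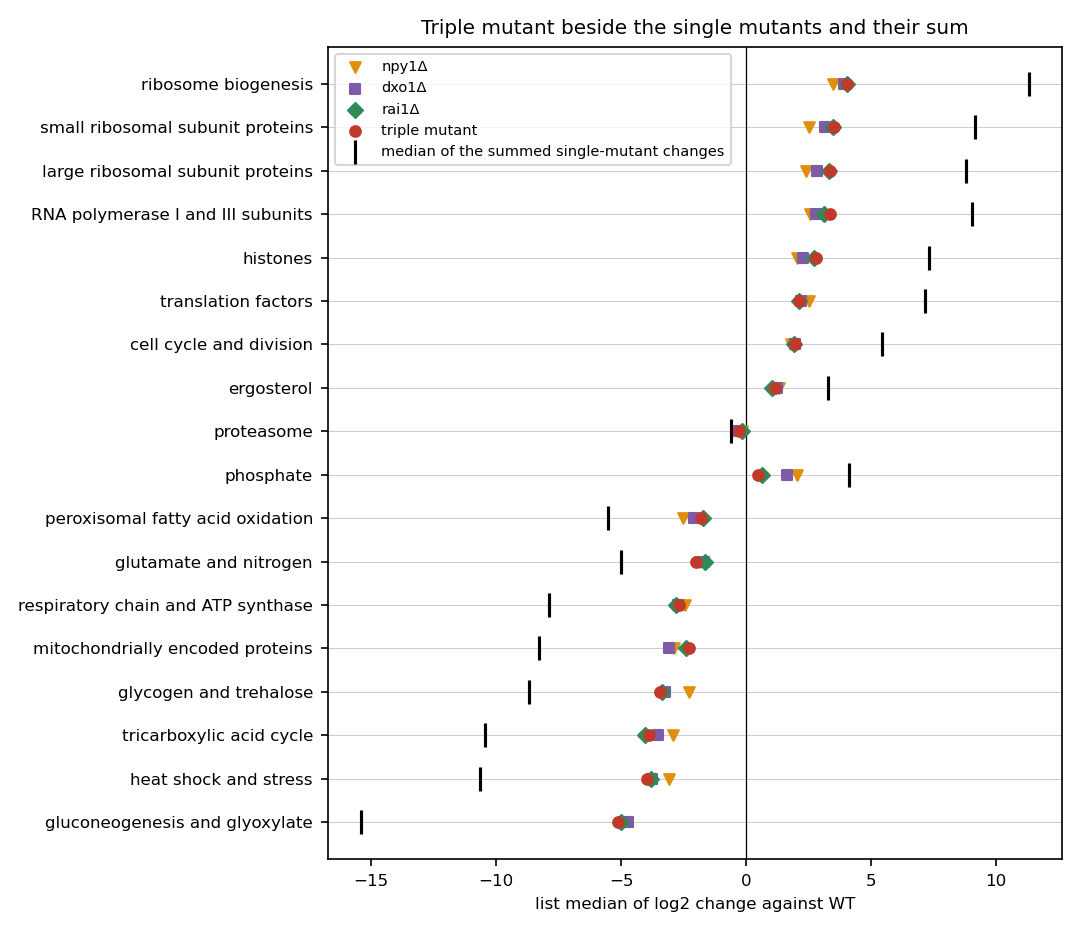
Median log2 change against WT of each gene list in the triple mutant, in each single mutant and for the sum of the 3 single mutants. For most of the lists shown the sum lies outside the measured values, as for ribosome biogenesis genes, whose triple mutant median of 4.03 in the fit of 24 libraries is near each single median (3.46, 3.93 and 4.04), and for proteasome genes it lies close to them (−0.59).

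Single genes show the same pattern by library. In this fit NOP1 had 2.61 to 19.1 scaled counts in WT, 912 to 1260 in npy1Δ, 1895 to 2317 in dxo1Δ, 1093 to 1487 in rai1Δ and 1161 to 1280 in the triple mutant, and its departure was −14.9 ± 0.63 (adjusted p = 1.58e-21). HSP26 had 55464 to 61961 in WT, 147 to 187 in npy1Δ, 25.1 to 38.4 in dxo1Δ, 22.7 to 34.5 in rai1Δ and 20.4 to 25.1 in the triple mutant, with a departure of 19.0 ± 0.42 (adjusted p = 3.23e-29). NOP1 in dxo1Δ lay above the triple mutant (the triple mutant was −0.78 ± 0.19 from dxo1Δ, adjusted p = 0.00207), and HSP26 in npy1Δ lay above it (−2.80 ± 0.19 from npy1Δ), while the other singles were nearer to it. Among the most positive departures were those of HXT5 (22.8) and PCK1 (20.3). LEU4, a synthase of leucine synthesis, was among the RNAs with no called departure. It had 966, 886 and 892 scaled counts in WT, 1042, 958 and 840 in npy1Δ, 894, 920 and 856 in dxo1Δ, 1518, 1432 and 1446 in rai1Δ and 1390, 1611 and 1640 in the triple mutant. Its departure was 0.07 ± 0.24 (adjusted p = 0.818), and in the 5′ region rai1Δ and the triple mutant lay above every WT library while npy1Δ and dxo1Δ overlapped WT. Over coding sequences the change of LEU4 in the triple mutant against WT was 0.27 and was not called.

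Whether any deletion added to the others was then asked by setting the triple mutant against each single and double mutant. Against rai1Δ, of 7030 RNAs 3 were called (0.0427%), namely DXO1 (−6.84), NPY1 (−4.28) and CTS2 (3.11 ± 0.23), the neighbour of DXO1. For 2430 RNAs with a mean scaled count above 100 the median absolute difference from rai1Δ was 0.083, and the interval of 1.96 SE lay within ±1 for 98.4% and within ±0.5 for 82.5%. Against dxo1Δ rai1Δ 2 RNAs were called (0.0284%), NPY1 (−4.38) and the rDNA-locus reading frame YLR154W-E (2.55), and against rai1Δ npy1Δ 4 (0.0569%), DXO1 (−6.33), CTS2 (2.54), XRS2 (1.31) and the alpha-agglutinin gene SAG1 (0.62). The shares with an interval within ±1 were 97.9% and 98.0%, and within ±0.5 they were 58.4% and 75.9%. Leaving out 1 library at a time gave 3 to 5, 1 to 29 and 1 to 3 calls. These strains lack RAI1 and share the second run code.

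Against the strains with RAI1 intact the triple mutant differed more. Against dxo1Δ 1400 RNAs were called (19.9%), 678 higher (9.64%) and 722 lower (10.3%), of which 53 passed a log2 difference of 2 (0.754%), and against dxo1Δ npy1Δ 1503 (21.4%). Both strains share the run code of the triple mutant. Intervals lay within ±1 for 84.9% and 83.3% of the 2430 abundant RNAs. Against npy1Δ, which carries the other run code, 2529 RNAs were called (36.0%), 1300 higher (18.5%) and 1229 lower (17.5%).

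**Figure D5:**
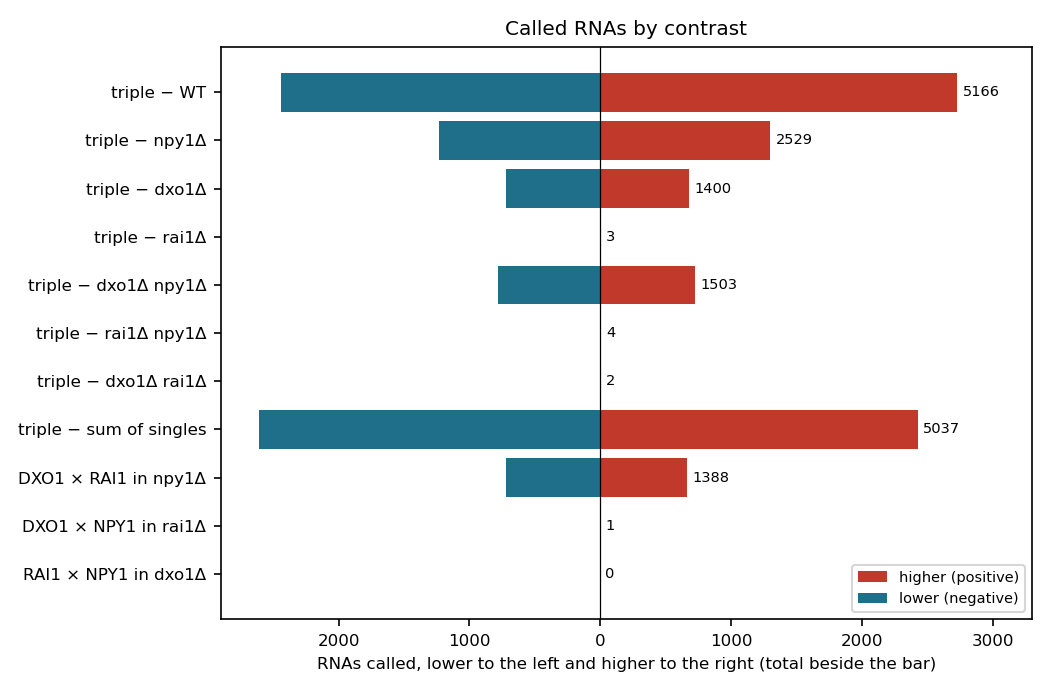
Number of RNAs called higher and lower in each comparison, with the strains or terms on the vertical axis. The triple mutant had 5166 calls against WT in the fit of 6 libraries, 1400 against dxo1Δ, and 3, 2 and 4 against the other strains that lack RAI1.

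The interaction terms were tested in the same fit. The RAI1 by NPY1 term in the dxo1Δ background was called for 0 of 7030 RNAs (0%) with edgeR and for 0 with DESeq2, and 533 had an unadjusted p below 0.05. The DXO1 by NPY1 term in the rai1Δ background was called for 1 RNA (0.0142%), YLR154W-E (3.85, adjusted p = 0.00855). The intervals lay within ±1 for 93.3% and 89.7% of the abundant RNAs, but within ±0.5 for only 25.8% and 22.6%. An absent call therefore does not exclude a term near the calling limit of 0.5. The DXO1 by RAI1 term in the npy1Δ background was called for 1388 (19.7%), 665 positive (9.46%) and 723 negative (10.3%), but here npy1Δ has the first run code and the other 3 strains the second. TDH1 was among the positive ones (3.11) and SNR52, a box C/D snoRNA, among the negative ones (−3.06). For TDH1 the scaled counts were 1192 to 2385 in npy1Δ and 165 to 202 in dxo1Δ npy1Δ. They were 118 to 148 in rai1Δ npy1Δ and 89.6 to 118 in the triple mutant, so that npy1Δ lay above the other strains of the term. SNR52 had 291, 299 and 968 unscaled reads in npy1Δ and 4071, 4120 and 3316 in dxo1Δ npy1Δ. It had 3310, 3639 and 2721 in rai1Δ npy1Δ and 3289, 3470 and 3640 in the triple mutant, so that npy1Δ lay below the others.

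Within the second run code, the difference between the triple mutant and dxo1Δ was examined by gene list and in both tables. Over coding sequences 1026 of 7161 RNAs were called (14.3%), 628 higher (8.77%) and 398 lower (5.56%). The direction was the same for 470 of 484 RNAs called in both tables. The phosphate list gave the same answer in both. In the 5′ region 9 of its 17 genes were lower (all RNAs 10.3%) and none higher (all RNAs 9.64%). Over coding sequences 10 were lower (all RNAs 5.56%) and 1 higher (all RNAs 8.77%). PHO89, a sodium-coupled phosphate transporter, had 367, 214 and 209 scaled counts in dxo1Δ and 37.3, 43.8 and 37.5 in the triple mutant (−2.73 ± 0.29, adjusted p = 7.78e-09). In rai1Δ it had 24.2, 64.2 and 78.4. PHO5, the repressible acid phosphatase, had 196, 232 and 243 in dxo1Δ, 84.0, 66.2 and 64.7 in the triple mutant (−1.64 ± 0.18, adjusted p = 1.25e-08) and 83.9, 67.1 and 101 in rai1Δ. For both genes the triple mutant did not overlap dxo1Δ and overlapped rai1Δ or lay beside it. PHO84 was also lower than in dxo1Δ (−0.59), although higher than in WT.

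Of 10 histone genes 6 were higher than in dxo1Δ in the 5′ region (all RNAs 9.64%) and 3 over coding sequences (all RNAs 8.77%), with none lower. HHT1 (histone H3) had 2402, 2545 and 2365 scaled counts in dxo1Δ, 5898, 5201 and 5697 in the triple mutant (1.20 ± 0.14, adjusted p = 1.04e-07) and 6089, 5535 and 6588 in rai1Δ. Of the 15 arginine and lysine genes 5 were higher and none lower in the 5′ region (all RNAs 9.64% and 10.3%). Over coding sequences 5 were higher and 1 lower (all RNAs 8.77% and 5.56%). ARG7, a mitochondrial acetyltransferase of ornithine synthesis, had 64.5, 53.1 and 74.6 in dxo1Δ and 165, 157 and 188 in the triple mutant (1.41 ± 0.17). The branched-chain genes ILV3 and LEU4 were higher by 0.98 and 0.80.

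The heat shock list of 27 genes split, with 5 higher and 6 lower in the 5′ region (all RNAs 9.64% and 10.3%). Over coding sequences 8 were higher and 9 lower (all RNAs 8.77% and 5.56%). HSP12, a small membrane-binding stress protein, had 17.9, 34.7 and 28.2 scaled counts in dxo1Δ, 404, 315 and 282 in rai1Δ and 295, 271 and 228 in the triple mutant (3.27 ± 0.24 against dxo1Δ, adjusted p = 3.97e-12), all far below the 19119 to 22137 of WT. HSP30 had 97.9, 149 and 80.2 in dxo1Δ and 24.3, 44.8 and 27.1 in the triple mutant (−1.79 ± 0.22). The triple mutant thus lay above dxo1Δ for the first gene and below it for the second. Of the decay genes, XRN1 had 925, 1143 and 1179 in dxo1Δ, 559, 516 and 497 in rai1Δ and 581, 555 and 572 in the triple mutant (−0.93 ± 0.13, adjusted p = 2.53e-06), and npy1Δ (1011 to 1131) overlapped dxo1Δ. Over coding sequences 2 of the 23 decay genes were higher than in dxo1Δ and 0 lower, so XRN1 was not called there.

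For ribosomal protein genes the tables gave different counts of differences from dxo1Δ. Of the 56 small subunit genes 23 were higher and 1 lower in the 5′ region against 2 and 2 over coding sequences. Of the 81 large subunit genes the counts were 40 and 3 against 3 and 6. Over all RNAs 9.64% were higher and 10.3% lower in the 5′ region, and 8.77% and 5.56% over coding sequences. The difference between the tables was not tested. RPS22A had 2133, 1762 and 2272 in dxo1Δ and 2432, 2421 and 2500 in the triple mutant (0.25 ± 0.13, adjusted p = 0.17).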

How the data were processed

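RNA abundance was measured by sequencing of rRNA-depleted, sheared total RNA in 24 yeast transcriptome libraries (8 strains, 3 biological replicates each), of which the 3 of WT and the 3 of the triple mutant form the main comparison. The authors mapped reads with Bowtie to the BY4742_Toronto_2012 assembly, filtered them by strand and counted them per RNA with HTSeq, and the submitters' processing notes name SAMtools 0.1.13 and DESeq2 1.4.5. The deposited values are raw counts with no normalization, in a table of 5′ regions and a table of coding sequences. Each table has 7620 rows, of which 6598 are mRNAs, and 956 of the 1022 other rows are equal in both tables. Reads carry no molecular identifiers, so PCR copies are counted. The deposited tables of the authors' own comparisons hold fold changes and p-values and were not used.

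Columns were matched to samples by name. Counts were tested in R 4.3.3 with the quasi-likelihood test of edgeR 4.0.16 (limma 3.58.1, TMM factors) and adjusted over all tested RNAs by Benjamini-Hochberg. An RNA was tested above a mean scaled count of 1 and called at an adjusted p below 0.05 with an absolute log2 change above 0.5. The triple mutant against WT was fitted on 6 libraries, all other comparisons and the additivity and interaction terms on 24. The SE was taken from the fitted change and its F value. Shares of reads were compared with a two-sided exact permutation test. Where a group had 0 reads, a bound against a floor of 3 reads over the group stands in for the fold, and list medians were the same with such bounds. Tables and figures were made with Python 3.11.15, pandas 2.3.3, numpy 2.4.6 and matplotlib 3.10.9. The scripts were tested on simulated data.

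Genes were named by a rule: members of 38 gene lists, the deleted genes and their neighbours, the 10 highest and the 10 lowest changes among abundant RNAs (mean over 100) whose groups did not overlap, and the 5 highest and the 5 lowest RNAs of each additivity and interaction term. SAG1 was named as 1 of 4 calls, after its value was seen. The members and lists were chosen with earlier results of these data known. Gene names of 5914 mRNAs were matched to RefSeq (assembly R64), used for names and neighbours only. HIS3, LEU2, LYS2 and URA3 were not analysed here. The results of some list members are not reported here.

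Alternatives were DESeq2 1.42.0, RLE factors, factors from mRNA rows, total counts, other filters, coding sequence counts, the libraries of a contrast alone or all 24, a replicate block and leaving out each library. Leaving out the RNAs at 0 along the run code, asking for a call in both tables, and recomputing the shares of reads were added after the data were seen.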

Additional observations from a re-analysis of the deposited data

Results flagged for a closer look

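Of 7030 RNAs 5037 departed from the sum of the 3 single mutants, by the test of the departure itself (edgeR, adjusted p below 0.05). The WT libraries, which stand apart from every mutant library, enter each of the 4 comparisons summed there.

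The effect of deleting RAI1 together with DXO1 differed from the sum of both in the npy1Δ background for 1388 RNAs, by the interaction test. The npy1Δ libraries carry another run code than the dxo1Δ npy1Δ, rai1Δ npy1Δ and triple mutant libraries, so the strain and the run code cannot be told apart.

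YLR154W-E, a short reading frame of the rDNA locus, had a DXO1 by NPY1 interaction of 3.85 on the log2 scale in the rai1Δ background (adjusted p = 0.00855). It had 190, 189 and 167 reads in rai1Δ, 12, 4 and 75 in dxo1Δ rai1Δ, 50, 71 and 87 in rai1Δ npy1Δ and 136, 176 and 188 in the triple mutant. The dxo1Δ rai1Δ libraries differed from each other by more than any other of these strains, and the call count of this term went from 1 to between 0 and 13 when single libraries were left out. The samples were depleted of rRNA, and the part of that step in these values was not tested.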

How the results depend on the processing

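The number of RNAs called for the triple mutant against WT (5166) stayed within 1.5 times under every alternative, from 5024 to 5083 when 1 library was left out. So did the count of additivity departures (4823 to 5016). The counts of the DXO1 by RAI1 term in npy1Δ (1087 to 1425) and of the differences from dxo1Δ (1077 to 1347), dxo1Δ npy1Δ (1200 to 1359) and npy1Δ (2235 to 2548) did so except where a call of the same direction in both tables was asked for, which left 626, 470, 560 and 1235. Small counts moved more. The DXO1 by NPY1 term in rai1Δ (1 call) gave 36 with DESeq2, 0 with coding sequence counts or with calls in both tables, 10 with the libraries of the contrast alone, 3 without the RNAs at 0 along the run code, and 0 to 13 without single libraries. The RAI1 by NPY1 term in dxo1Δ gave 0 to 1 and the difference from rai1Δ 3 to 5 without single libraries, the higher value without triple mutant replicate 3 in both. Against dxo1Δ rai1Δ (2 calls) DESeq2 gave 10 and leaving out dxo1Δ rai1Δ replicate 3 gave 29.

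Single genes reversed in the following cases. Total counts move all changes with the scale, by 1.70 for the median of all RNAs. With total counts the log2 change against WT was 0.83 for COX2, 0.14 for SSA1, 1.12 for PHO5, 1.03 for XRN1, 0.39 for NMA2, 1.08 for LRP1, 0.65 for RPL16A, 0.30 for DCP2, 0.10 for NRT1, 0.78 for NPT1 and 1.13 for NAB3. With coding sequence counts it was −0.12 for VAR1, 1.21 for PHO5, 0.60 for YDR133C, −0.56 for XRS2, 0.98 for LRP1, −0.81 for COX5B, 4.30 for RPL16A and 2.68 for SNR60. The cause of these was not tested. The snoRNA share of reads was then 3.29 percentage points lower in the triple mutant (−3.29) instead of higher. Most rows outside the mRNAs hold the same counts in both tables, while the totals of reads differ.

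Replicates with the same number did not deviate together (r = −0.07, 0.06 and −0.05 between WT and triple mutant). With a replicate block 5085 RNAs were called against WT, 5019 for additivity, 1352 for the DXO1 by RAI1 term, 1386 against dxo1Δ, 2508 against npy1Δ, 3 against rai1Δ, and 0 and 1 for the other terms, and of the counts computed only that against rai1Δ npy1Δ moved by over 1.5 times (4 to 2). Depth limits the 5′ regions of DXO1, RAI1 and RNAs with few WT reads such as MRT4 and NOP1.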

Other observations

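Genes of the mating pheromone and of the cell wall separated the strains in more than 1 way. MF(ALPHA)1, the main gene of the alpha factor precursor, had 256, 284 and 296 scaled counts in WT and 6051, 6665 and 5775 in the triple mutant (log2 change 4.47 ± 0.15, edgeR adjusted p = 1.20e-20), and STE3, the receptor for a factor, rose by 3.37. MF(ALPHA)2, the minor alpha factor gene, had 1074, 934 and 893 in dxo1Δ, 374, 378 and 380 in rai1Δ and 384, 405 and 357 in the triple mutant in the fit of 24 libraries. The triple mutant lay below dxo1Δ (−1.34 ± 0.14, adjusted p = 1.38e-08) and overlapped rai1Δ, and all lay above the 31.5 to 41.7 of WT. Both alpha factor genes share much of their sequence.

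CCW12, an abundant mannoprotein of the cell wall, had 2488, 2472 and 3942 scaled counts in WT, 19394, 19120 and 21485 in dxo1Δ and 36454, 36957 and 38900 in the triple mutant. It was 0.90 ± 0.16 above dxo1Δ on the log2 scale (adjusted p = 6.32e-05), and rai1Δ, at 34793 to 39836, overlapped the triple mutant. TIR1, a wall mannoprotein of cold and low oxygen, had 251, 237 and 115 in dxo1Δ and 25.1, 11.2 and 20.8 in the triple mutant (−3.37 ± 0.47, adjusted p = 2.31e-06), with 7.88 to 21.5 in WT. These genes were named from their lists after their values were seen.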
